A study of Homo sapiens with 6 samples.

Results

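The 10 genes described here are the transcription factor MYC, its dimer partner MAX, and 8 genes that work in the nucleolus or are textbook targets of MYC (NCL, NPM1, FBL, NOP56, NOP58, BOP1, HSPD1 and ODC1). They were chosen by symbol from the deposited table of exon counts, where each had 1 row among 27234, and all 10 were among the 9420 genes with enough counts to be tested. RNA came from A673, an established line from Ewing sarcoma in which both groups carry EWS-FLI1, grown in DME medium with serum. One group of 3 libraries received an siRNA oligonucleotide against FLI1 (siFLI1) and the other group of 3 a scrambled siRNA (siControl), and RNA was isolated 48 h later. The comparison asks which transcripts differed when FLI1, the DNA-binding end of the fusion, was targeted. Only 1 line was used, the transfections were transient, and reads came from the 3' ends of polyadenylated RNA.

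MYC binds DNA as a dimer with MAX at a short sequence called the E-box, and many of its best known target genes serve ribosome production. In the nucleolus RNA polymerase I makes the precursor of ribosomal RNA. Small nucleolar RNAs then guide its methylation as part of box C/D particles, and assembly factors cut and fold it into the ribosomal subunits. Nucleolin and nucleophosmin are abundant proteins of this compartment. HSPD1, a mitochondrial chaperonin, and ODC1, the first enzyme of polyamine synthesis, are MYC targets outside the nucleolus.

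The start regions of 7 of the 10 genes were searched first for the E-box, spelled CACGTG, which reads the same on both strands. They were also searched for an ETS core, spelled CGGAAG or CTTCCG. The windows ran from 250 bases before to 30 bases after each start in RefSeq (GRCh38.p14, the hg38 coordinates of the counts). The 7 genes had 11 windows in all. MYC, BOP1 and NOP58 were not searched, so nothing is said here about motifs at their starts. The E-box was found for 3 of the 7 genes, FBL, HSPD1 and ODC1, against 8.42% of the 27305 genes with a window and 6.94% of all 35116 windows. The ETS core was found for FBL and MAX, against 21.9% of genes. The 3 windows with an E-box are shown because they belong to genes whose levels are compared below, with the E-box in capitals, 5′ to 3′ on the minus strand.
FBL (chr19:39846350-39846629): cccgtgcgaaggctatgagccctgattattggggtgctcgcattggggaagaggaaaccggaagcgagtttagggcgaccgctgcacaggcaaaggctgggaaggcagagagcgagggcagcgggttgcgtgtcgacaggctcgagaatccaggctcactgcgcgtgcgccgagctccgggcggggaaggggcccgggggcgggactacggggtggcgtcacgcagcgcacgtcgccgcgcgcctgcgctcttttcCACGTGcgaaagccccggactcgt
HSPD1 (chr2:197500245-197500524): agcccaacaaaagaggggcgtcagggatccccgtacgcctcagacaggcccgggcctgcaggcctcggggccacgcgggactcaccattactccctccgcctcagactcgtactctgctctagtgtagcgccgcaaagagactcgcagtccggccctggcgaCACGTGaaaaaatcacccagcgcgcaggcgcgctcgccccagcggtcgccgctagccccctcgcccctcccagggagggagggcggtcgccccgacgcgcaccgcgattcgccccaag
ODC1 (chr2:10447983-10448262): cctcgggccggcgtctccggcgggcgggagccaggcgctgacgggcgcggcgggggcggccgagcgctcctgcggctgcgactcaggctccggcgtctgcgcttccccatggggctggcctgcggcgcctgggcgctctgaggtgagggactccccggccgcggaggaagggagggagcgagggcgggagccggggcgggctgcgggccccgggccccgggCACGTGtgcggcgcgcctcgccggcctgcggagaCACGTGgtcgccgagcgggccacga
Counted from the start, the E-box began at 7 in FBL and at -88 in HSPD1. In ODC1 E-boxes began at -29 and 6. The HSPD1 E-box lies at 197500357 on chromosome 2 and is also inside the window of HSPE1, which is transcribed the other way. The other window of HSPD1 and the other window of ODC1 held none, nor did the windows of NCL, NPM1, MAX and NOP56. The HSPD1 start with the E-box lies 358 bases from the start of the counted row, and the start without it 76 bases. For ODC1 these distances were 213 and 528 bases. The start used for the HSPE1 window lies 382 bases inside the counted HSPE1 row, so the shared E-box is past the start of that row. A match describes these letters and does not show binding.

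None of the 10 genes passed the test for a difference between siFLI1 and siControl cells, and 10 of 10 had a log2 fold change below 0, where 49.6% of all tested genes did. Levels are library-size-scaled counts (CPM) with trimmed mean of M values (TMM) factors. The test was edgeR's quasi-likelihood test with Benjamini-Hochberg adjustment over the 9420 genes at a threshold of 0.05, which called 1.45% of genes in either direction and 0.117% as lower in siFLI1. DESeq2, which called 2.30% of genes, and limma-voom, which called 1.49%, also called 0 of the 10. At an unadjusted p below 0.05, BOP1, FBL, HSPD1 and NOP58 were lower and 0 were higher, against 4.13% of all genes lower. For MYC, FBL, NOP58 and HSPD1 every siFLI1 library lay below every siControl library, an arrangement seen in 7.71% of all genes. The median log2 fold change of the 10 was -0.54, against 0.01 over all tested genes.

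**Figure D1:**
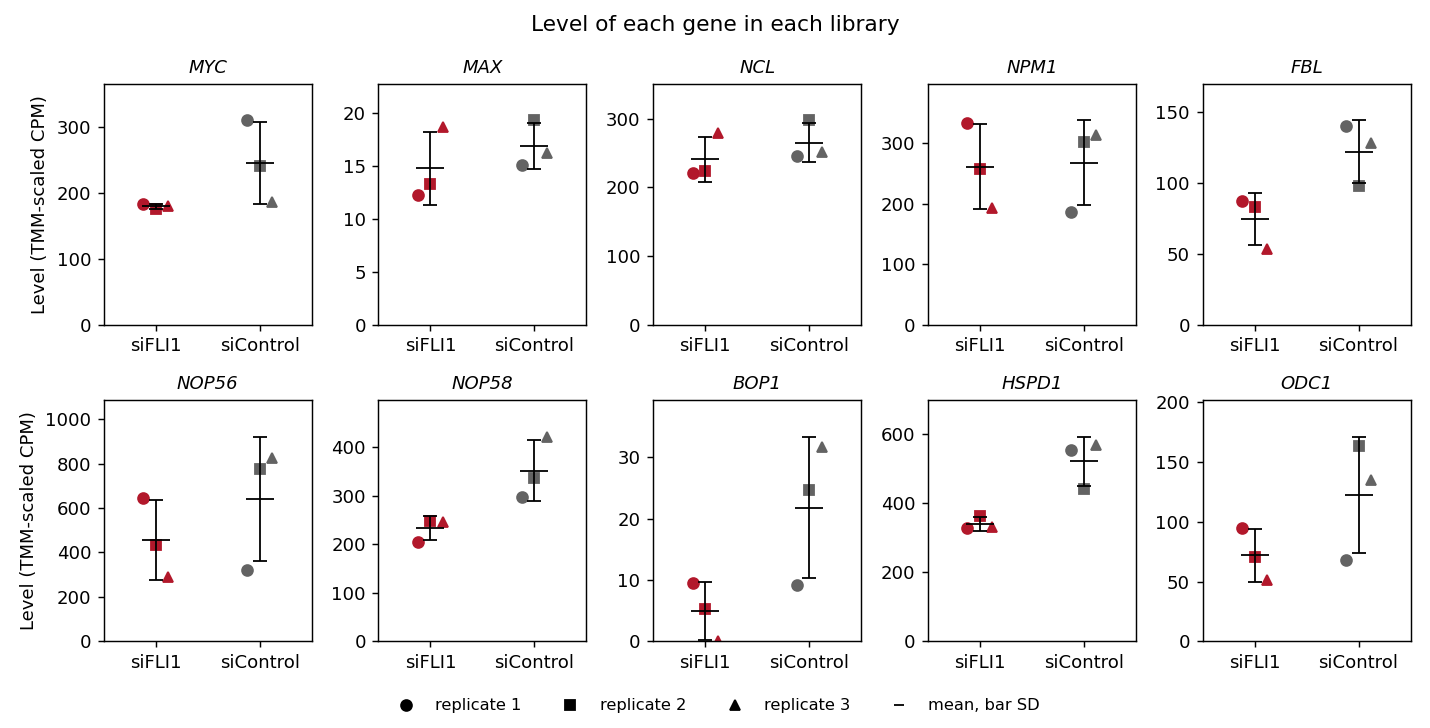
Level of each of the 10 genes in TMM-scaled CPM (vertical axis, from 0) in the 3 siFLI1 libraries (red, left) and the 3 siControl libraries (grey, right), with the mean and SD as a bar and the replicate as the marker's shape. MYC lies at 176 to 182 CPM in siFLI1 and 185 to 310 CPM in siControl. The groups overlap in MAX, NCL, NPM1 and NOP56. In BOP1 and ODC1 only siControl replicate 1 lies within the siFLI1 range.

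These libraries were uneven. Counts assigned to genes came to between 417145 and 1893606 in siFLI1 and between 1248395 and 1790051 in siControl. SiFLI1 replicate 3 was the shallowest, with 10.1% of its column's header total assigned to genes against 41.2% to 61.0% in the other 5 libraries. The TMM factor of siControl replicate 1 was 1.23, against 0.94 to 0.99 in the others. The FLI1 row gave 19.0, 42.5 and 24.1 CPM in siFLI1 cells, against 63.0, 69.1 and 62.4 CPM in siControl. This difference of -1.16 on the log2 scale, with an SE of 0.36, missed the threshold (edgeR adjusted p = 0.17). Since reads came from 3' ends, the row does not tell FLI1 transcripts from those of the fusion. All 7 Ewing sarcoma markers checked were detected, with summed levels of 701 to 763 CPM in siFLI1 and 1223 to 1529 CPM in siControl. Of these 7, NR0B1 (log2 fold change -1.43, edgeR adjusted p = 0.025) and PRKCB (-1.17, 0.0369) fell in siFLI1, and 5 were lower at an unadjusted p below 0.05. Of 11 immune, endothelial and epithelial markers, CD3E, KRT5 and KRT19 were at 0 in every library, and the list summed to 1.33 to 56.2 CPM in siFLI1 and 3.77 to 17.95 CPM in siControl. The highest of these sums was in siFLI1 replicate 3, where PTPRC alone was at 42.8 CPM, and its part in the results was not tested.

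MYC (chromosome 8, 127736069 to 127741434, plus strand, hg38) encodes the factor that binds the E-box as a dimer with MAX. Its siFLI1 libraries gave 182, 176 and 179 CPM, and its siControl libraries 310, 241 and 185 CPM. The 3 siFLI1 libraries were nearly equal and the siControl libraries were spread, the lowest of them just above the siFLI1 values. These levels rest on 326, 265 and 67 counts in siFLI1 and 575, 412 and 217 in siControl. At 67 counts the counting error alone exceeds the spread between the siFLI1 libraries, so their closeness does not measure precision. The siFLI1 mean of 179 ± 3.11 CPM was 73.0% of the siControl mean of 245 ± 62.2 CPM (SD, n = 3 each). On the log2 scale siFLI1 minus siControl was -0.46 ± 0.26 (SE; 95% interval -1.01 to 0.10; edgeR adjusted p = 0.582), an interval that includes no change. The value was -0.28 without siControl replicate 1. In bulk RNA, fewer cells with a transcript and less of it per cell cannot be told apart.

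MAX (chromosome 14, 65075124 to 65102544, minus strand), which MYC needs to bind DNA, was thinly covered, with 7 to 22 counts per siFLI1 library and 19 to 33 per siControl library. Its level was 12.3, 13.3 and 18.7 CPM in siFLI1 and 15.1, 19.3 and 16.2 CPM in siControl, and the groups overlapped. Its log2 fold change, -0.25 with an SE of 0.47, had a 95% interval from -1.25 to 0.74 (edgeR adjusted p = 0.900). It was -0.13 without siFLI1 replicate 1, -0.14 without siControl replicate 2 and -0.40 without siFLI1 replicate 3. The counted transcript ends 68950 bases short of the farthest coding 3' end that GENCODE release 29 gives for MAX, so 3' reads of that longer form are outside the row.

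The abundant nucleolar proteins showed the smallest differences among the 10. NCL (chromosome 2, 231454748 to 231464494, minus strand), nucleolin, which binds ribosomal RNA precursors, was at 220, 224 and 278 CPM in siFLI1 and at 245, 297 and 252 CPM in siControl. NPM1 (chromosome 5, 171387704 to 171410884, plus strand), nucleophosmin, a histone and ribosome chaperone, was at 333, 256 and 193 CPM in siFLI1 and 186, 302 and 313 CPM in siControl. In both genes the groups overlapped, and for NPM1 the siFLI1 mean was 97.6% of the siControl mean. NCL and NPM1 were close to 0 on the log2 scale, at -0.15 ± 0.24 for NCL (SE; 95% interval -0.67 to 0.37) and -0.02 ± 0.29 for NPM1 (-0.64 to 0.59), with edgeR adjusted p of 0.890 and 0.990. NPM1 took either sign when single libraries were left out, from -0.25 without siControl replicate 1 to 0.14 without siFLI1 replicate 3. NCL ran from -0.25 without siFLI1 replicate 3 and -0.24 without siControl replicate 1 to -0.09 without siFLI1 replicate 1 and -0.05 without siControl replicate 2. GENCODE names 45 pseudogenes after NPM1 and 17 after HSPD1, near copies whose reads could have been shared with these rows. The NCL row stops 1217 bases before the farthest coding end in GENCODE, and no coding transcript of GENCODE ends close to the end of this row.

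FBL, NOP56 and NOP58 are core proteins of box C/D particles, and none of them passed the test. SNU13, another core protein, averaged 257.4 CPM in siFLI1 cells, against 257.2 CPM in siControl cells (log2 fold change -0.01 ± 0.26, SE; edgeR adjusted p = 0.997). FBL (chromosome 19, 39834453 to 39846414, minus strand), fibrillarin, is the methyltransferase of the particle. It was at 87.2, 83.0 and 53.55 CPM in siFLI1 and at 141, 97.8 and 128 CPM in siControl, and no siFLI1 library reached the lowest siControl library. Its mean was 74.6 ± 18.4 CPM in siFLI1 and 122 ± 22.0 CPM in siControl (SD, n = 3 each). FBL thus lay -0.67 ± 0.28 from siControl on the log2 scale (SE; 95% interval -1.28 to -0.07; edgeR adjusted p = 0.402).

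NOP58 (chromosome 2, 202265716 to 202303661, plus strand), a scaffold of the same particle, gave a similar picture. It stood at 205, 247 and 246 CPM in siFLI1 and at 297, 336 and 421 CPM in siControl, without overlap. NOP58 had a log2 fold change of -0.59 ± 0.25 (SE; 95% interval -1.13 to -0.06; edgeR adjusted p = 0.403). NOP56 (chromosome 20, 2652532 to 2658393, plus strand), the partner scaffold, behaved less evenly, at 646, 434 and 289 CPM in siFLI1 and 320, 776 and 827 CPM in siControl. SiControl replicate 1 lay below 2 of the 3 siFLI1 libraries, and its log2 fold change, -0.48 with an SE of 0.37, had a 95% interval from -1.28 to 0.32 (edgeR adjusted p = 0.723). It was -0.82 without siFLI1 replicate 1 and -0.83 without siControl replicate 1, but -0.25 without siFLI1 replicate 3, -0.32 without siControl replicate 2 and -0.26 without siControl replicate 3. The NOP56 row overlaps IDH3B on the other strand, which had 17 to 128 counts in siFLI1 libraries and 113 to 160 in siControl libraries. Of the small nucleolar RNA rows inside NCL, NOP56, NOP58 and ODC1, all had 0 counts.

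BOP1 (chromosome 8, 144262046 to 144291438, minus strand) is a subunit of the complex that processes RNA of the large ribosomal subunit. It had the lowest log2 fold change of the 10, and few counts: 17, 8 and 0 in siFLI1 and 17, 42 and 37 in siControl. That is 9.50, 5.31 and 0 CPM in siFLI1 and 9.15, 24.6 and 31.6 CPM in siControl. The 0 in siFLI1 replicate 3 allows up to 8.03 CPM at 3 counts, and siControl replicate 1 was no higher than siFLI1 replicate 1. For BOP1 the fitted log2 value was -1.81 ± 0.67 (SE; 95% interval -3.24 to -0.37; edgeR adjusted p = 0.302). BOP1 shares its place with SCX on the other strand, which had 7, 0 and 0 counts in siFLI1 and 24, 16 and 26 counts in siControl, and the sources used here do not say whether counting used strand.

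HSPD1 (chromosome 2, 197486584 to 197499916, minus strand), the large chaperonin of mitochondria, was at 326, 361 and 329 CPM in siFLI1 and at 554, 439 and 568 CPM in siControl. The groups did not overlap, and the mean of 339 ± 19.6 CPM in siFLI1 was 65.2% of the 520.1 ± 70.4 CPM in siControl (SD, n = 3 each). HSPD1 differed by -0.62 ± 0.25 on the log2 scale (SE; 95% interval -1.15 to -0.08; edgeR adjusted p = 0.380). HSPE1, its cochaperonin, whose window holds the same E-box, was at 15570, 15391 and 32580 CPM in siFLI1 and 10964, 18619 and 17659 CPM in siControl (log2 fold change 0.43 ± 0.45, SE; edgeR adjusted p = 0.819). The highest HSPE1 value was in siFLI1 replicate 3, and the other siFLI1 libraries lay within the siControl range. The HSPE1 row overlaps the read-through gene HSPE1-MOB4 on the same strand. The HSPD1 row in turn holds SNORA105A and SNORA105B on its own strand, with 16 to 75 counts in siFLI1 libraries and 50 to 55 in siControl libraries.

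ODC1 (chromosome 2, 10440371 to 10447799, minus strand), whose window holds a pair of E-boxes, was at 95.05, 70.4 and 50.9 CPM in siFLI1 and 68.4, 163 and 135 CPM in siControl. Only siControl replicate 1 lay within the siFLI1 range. ODC1 had a log2 fold change of -0.72 ± 0.34 (SE; 95% interval -1.45 to 0.02; edgeR adjusted p = 0.487), and -0.45 without siControl replicate 2. The row ends 403 bases before the farthest coding end in GENCODE, and, as for NCL, no coding transcript of GENCODE ends close to the end of the row.

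**Figure D2:**
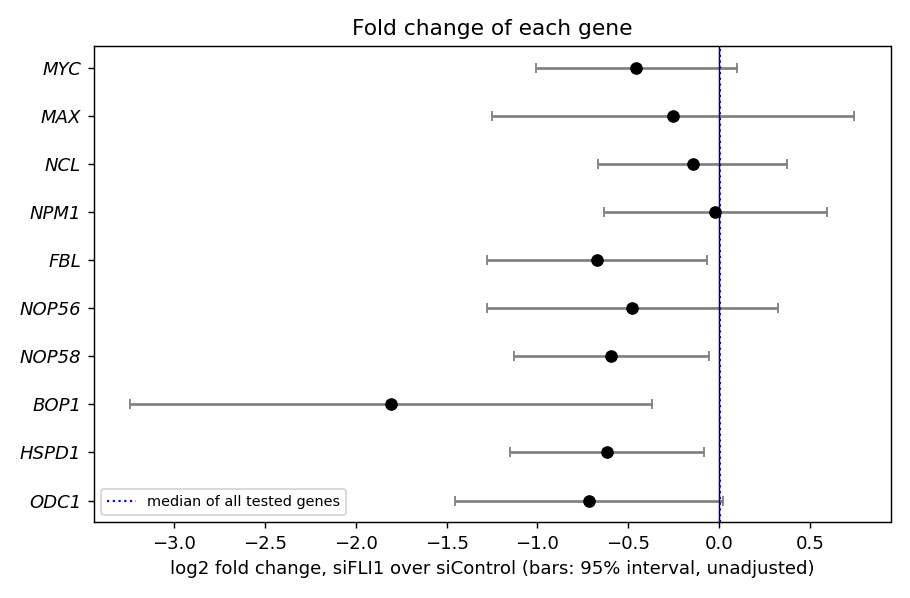
Log2 fold change of siFLI1 over siControl (horizontal axis) for each gene, with 95% intervals for each gene alone, unadjusted over genes. All 10 points lie below 0, the intervals of FBL, NOP58, BOP1 and HSPD1 end below 0, and the dotted line marks the median of all tested genes at 0.01.

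The 10 genes were not high or low in the same libraries. In siControl replicate 1, NOP56 was at 39.9%, ODC1 at 45.8%, BOP1 at 32.6% and NPM1 at 60.6% of the mean of the other siControl libraries, whereas MYC was at 145% and FBL at 124%. In siFLI1 replicate 3, NOP56 was at 53.5%, ODC1 61.5%, NPM1 65.4% and FBL 62.9% of the mean of the other siFLI1 libraries. BOP1 had 0 counts there, which allows up to 8.03 CPM at 3 counts. Since its other siFLI1 libraries gave 9.50 and 5.31 CPM, BOP1 cannot be called low in that library. MYC in that library was at 100.1%. Over the 6086 tested genes with a mean of at least 20 CPM, the median of these percentages was 96.8% in siControl replicate 1 and 97.1% in siFLI1 replicate 3. NOP56, ODC1 and NPM1 were therefore low in the library with the highest TMM factor and in the shallowest one. BOP1 was low in the first of these, and the part of either library in these values was not tested.

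**Figure D3:**
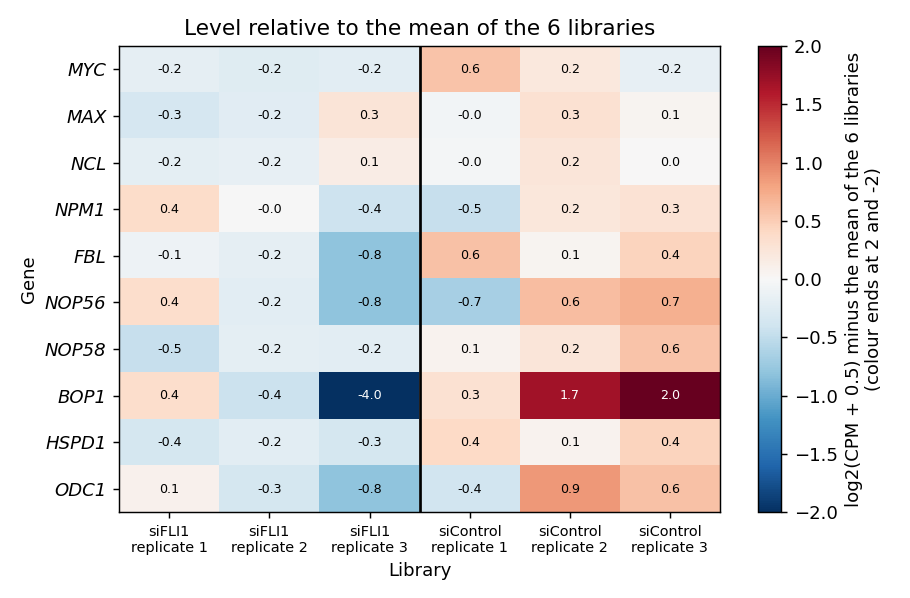
Level of each gene (rows) in each library (columns, siFLI1 left of the line and siControl right of it) as log2(CPM + 0.5) minus the mean of the 6 libraries, printed in each cell, with the colour ending at 2 and -2. MYC, at 310 CPM, was high in siControl replicate 1, where NOP56 and ODC1 were low, and BOP1 in siFLI1 replicate 3 rests on 0 counts, so its cell depends on the added 0.5.

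Without those libraries, siFLI1 replicate 3 and siControl replicate 1, edgeR called 2.02% of genes and again 0 of the 10, all 10 of which kept a log2 fold change below 0. At an unadjusted p below 0.05, BOP1, HSPD1, NOP56, NOP58 and ODC1 were lower, against 5.88% of genes. For MYC the log2 fold change was then -0.26, with only 2 libraries a group. The count of genes lower at an unadjusted p depended on single libraries. It was 4 of 10 with all libraries. Leaving out siFLI1 replicate 1 gave 3 (BOP1, FBL and ODC1), against 3.50% of all genes in the same fit. Leaving out siFLI1 replicate 2 gave 0, against 2.61%, and siFLI1 replicate 3 gave 2 (BOP1 and NOP58), against 4.43%. Leaving out siControl replicate 1 gave 5 (BOP1, HSPD1, NOP56, NOP58 and ODC1), against 4.14%. Without siControl replicate 2 the count was 2 (FBL and HSPD1), against 3.33%, and without siControl replicate 3 it was 1 (MYC), against 3.25%.

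**Figure D4:**
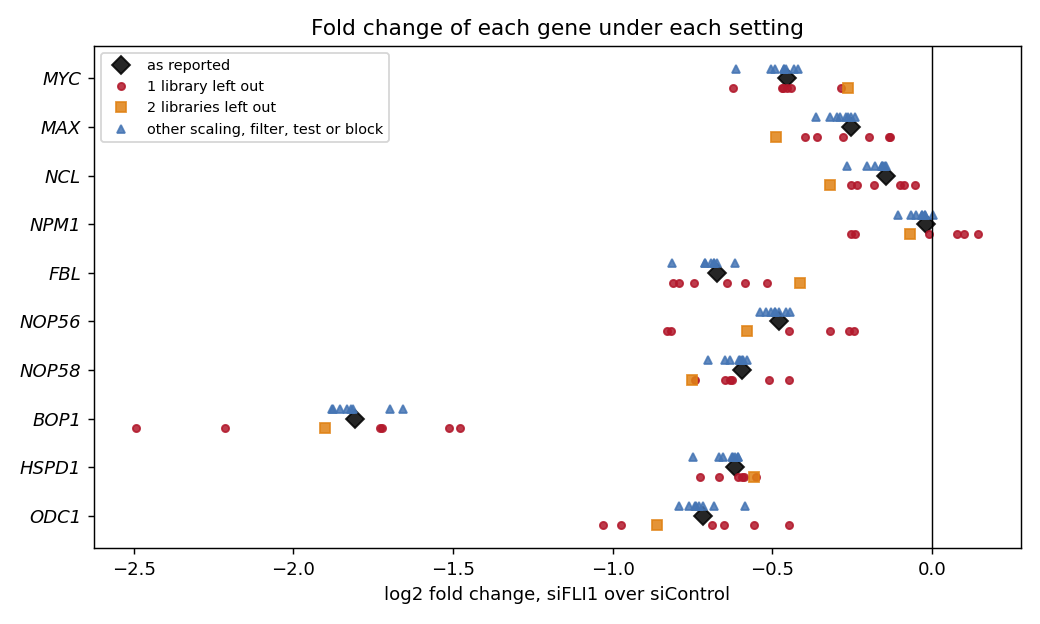
Log2 fold change of siFLI1 over siControl (horizontal axis) for each gene as reported (black diamonds), with 1 library left out (red circles), with siFLI1 replicate 3 and siControl replicate 1 left out (orange squares), and under another scaling, filter, test or block (blue triangles). BOP1 ranges from -2.49 to -1.48, and NPM1 is the gene with values on both sides of 0.

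Genes that interact with MYC and MAX were not called. Of 19 listed partners and antagonists 11 were tested, 7 with a log2 fold change below 0, and the median was -0.20. RUVBL1, an ATPase that binds MYC, was at 43.1, 31.2 and 37.5 CPM in siFLI1 and 71.1, 60.3 and 71.8 CPM in siControl (log2 fold change -0.86 ± 0.30, SE; edgeR adjusted p = 0.268). Its paralog RUVBL2 was at -0.35 ± 0.32 and the coactivator TRRAP at 0.62 ± 0.42 on the log2 scale. No group is called different from others here, since only counts and medians were compared.

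Ribosome assembly factors beyond the 10 genes mostly had log2 fold changes below 0, with 0 called by edgeR, DESeq2 or limma-voom. For snoRNA particles 11 of 13 tested genes had a log2 fold change below 0 (median -0.20), and 1, or 7.69%, was lower at an unadjusted p below 0.05. Over all tested genes these shares were 49.6% below 0 and 4.13% lower. That gene was DKC1, the pseudouridine synthase of box H/ACA particles, at 25.7, 43.8 and 29.5 CPM in siFLI1 and 51.2, 64.4 and 56.4 CPM in siControl (log2 fold change -0.78 ± 0.33, SE; edgeR adjusted p = 0.412). TCOF1, a nucleolar cofactor of ribosomal DNA transcription, was at -1.01 ± 0.55, RPAP3 at 0.34 ± 0.32 and NOP10 at -0.20 ± 0.26. TCOF1 had 22, 28 and 1 counts in siFLI1.

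For large subunit assembly 27 of 34 tested genes lay below 0 (median -0.25), 2 of them, or 5.88% of the list, at an unadjusted p below 0.05, near the 4.13% of all genes. The median was -0.39 without siFLI1 replicate 1 and -0.38 without siControl replicate 1, but -0.20 without siFLI1 replicate 3. Without siControl replicate 3, 23 of 34 genes lay below 0. On the log2 scale RRP1 was at -1.34 ± 0.50 (SE; edgeR adjusted p = 0.308), RPF2 -0.56 ± 0.25 (0.435), TEX10 -0.71 ± 0.34 (0.484) and EBNA1BP2 -0.05 ± 0.25 (0.966). For the small subunit processome, the particle that folds the precursor of the small subunit, 32 of 47 lay below 0 (median -0.31), 4 of them, or 8.51% of the list, at an unadjusted p below 0.05. NOC4L was at -1.87 ± 0.69, IMP3 at -0.83 ± 0.33, BYSL at -1.14 ± 0.49 and UTP11 at -0.08 ± 0.26 on the log2 scale. Some of these values rest on few siFLI1 counts: 6, 8 and 0 for NOC4L, 15, 13 and 3 for BYSL, and 10, 14 and 3 for RRP1. RNA polymerase I and its factors were mixed, with 9 of 14 below 0 and a median of -0.11, which ran from -0.32 without siFLI1 replicate 2 to 0.10 without siControl replicate 1. POLR1A, its largest subunit, was at 14.5, 20.6 and 8.03 CPM in siFLI1 and 5.39, 6.44 and 6.84 CPM in siControl (log2 fold change 1.29 ± 0.54, SE; edgeR adjusted p = 0.403). The POLR1A level in siFLI1 replicate 3 rests on 3 counts. POLR1B was at -0.70 ± 0.43, POLR1D at -0.54 ± 0.33 and TAF1D at -0.02 ± 0.39.

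Around ODC1, 6 of 10 tested genes of the polyamine pathway lay below 0 (median -0.08, from -0.15 without siControl replicate 2 to 0.08 without siControl replicate 1). SAT1, which acetylates polyamines for export and breakdown, was higher at an unadjusted p below 0.05, at 82.7, 93.0 and 96.4 CPM in siFLI1 and 55.5, 59.1 and 29.1 CPM in siControl (log2 fold change 0.90 ± 0.31, SE; edgeR adjusted p = 0.261). Every siFLI1 library was above every siControl library, as in 8.93% of all genes. OAZ1, the antizyme that sends the ODC1 protein to degradation, was at -0.36 ± 0.25, and the spermidine synthase SRM at -0.36 ± 0.33. Around HSPD1, 13 of 17 mitochondrial chaperone and import genes lay below 0 (median -0.28), among them the protease LONP1 at -1.07 ± 0.41, CLPP at -0.93 ± 0.54 and TOMM22 at -0.49 ± 0.29. CLPP had 25, 12 and 1 counts in siFLI1.

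Other genes listed as activated by MYC lay mostly below 0, and those listed as repressed mostly above. Of 29 tested activated genes 27 had a log2 fold change below 0 (median -0.31). The median was -0.20 without siFLI1 replicate 3, and without siControl replicate 3 it was 22 of 29 genes that lay below 0. At an unadjusted p below 0.05 only 1 gene was lower, 3.45% of the list against 4.13% of all genes, the chromatin factor RCC1 at -0.89 ± 0.35 (SE; edgeR adjusted p = 0.342). The nucleoplasmin family gene NPM3 was at -0.76 ± 0.36, the amino acid transporter chain SLC3A2 at -0.51 ± 0.26 and the translation factor EIF4A1 at -0.35 ± 0.33. Only 5 of 10 repressed genes had enough counts, and 4 of these lay above 0 (median 0.92), 3 at an unadjusted p below 0.05, where 6.62% of all genes were higher. They were PDGFRB, a growth factor receptor, at 1.68 ± 0.47 (edgeR adjusted p = 0.117), FTH1, the ferritin heavy chain, at 0.92 ± 0.29 (0.199) and NDRG1 at 1.19 ± 0.44 (0.308). The gene below 0 was CDKN1A, at -0.52 ± 0.30 (edgeR adjusted p = 0.588). PDGFRB was called by DESeq2 (adjusted p = 0.036), and both PDGFRB and NDRG1 were called by edgeR without siFLI1 replicate 3 and siControl replicate 1 (adjusted p = 0.0346 and 0.00449). In that same fit the median of the repressed list was 0.48, with 2 of 5 genes below 0.

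Cytosolic ribosomal protein genes, the products that the nucleolar factors assemble, had a median log2 fold change of -0.20, with 65 of 77 below 0 and 4 lower at an unadjusted p below 0.05, 5.19% of the list and near the 4.13% of all genes. The median was -0.37 without siControl replicate 1 and -0.09, with 53 of 77 below 0, without siControl replicate 3. RPLP0, a protein of the ribosomal stalk, was at 329, 335 and 335 CPM in siFLI1 and 604, 461 and 613 CPM in siControl (log2 fold change -0.75 ± 0.25, SE; edgeR adjusted p = 0.234). RPL8 was at 0.44 ± 0.50, with its highest level, 77466 CPM, in siFLI1 replicate 3. Under scaling by total counts the median of all tested genes moved to -0.12, and that of the 10 genes to -0.66.

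**Figure D5:**
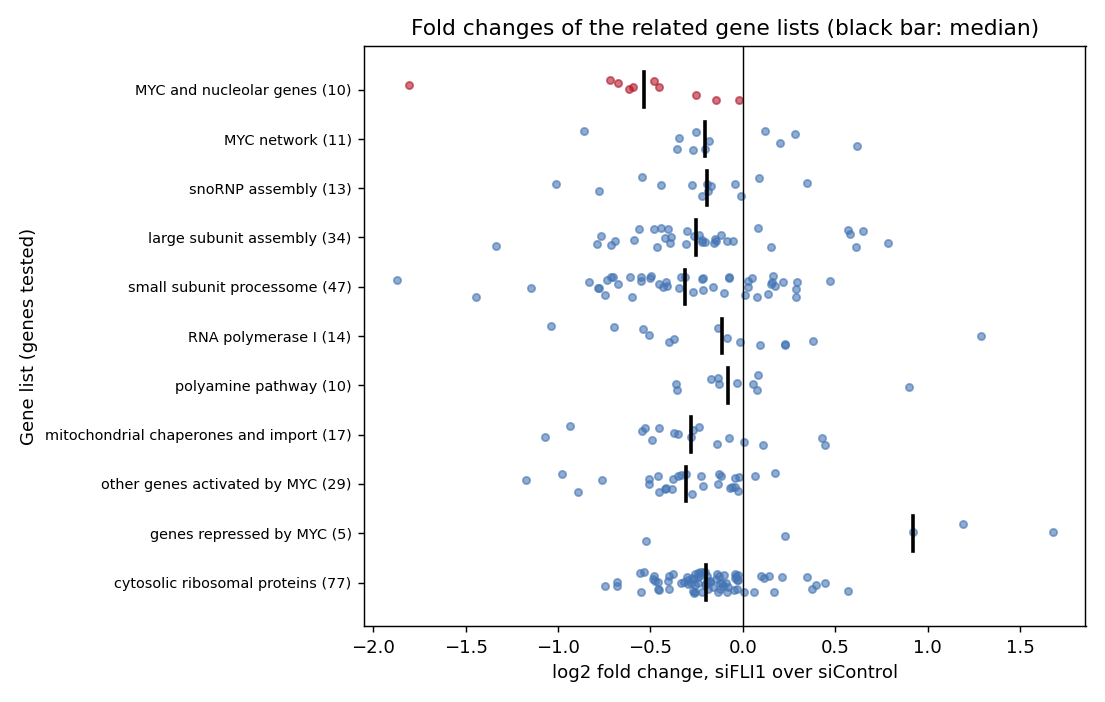
Log2 fold change of siFLI1 over siControl (horizontal axis) of each tested gene in each list (rows, number tested in brackets), with the 10 genes in red and the related lists in blue and the median as a black bar. Medians run from -0.54 for the 10 genes to 0.92 for genes listed as repressed by MYC, which rests on 5 genes.

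Genes with a pattern like that of MYC over the 6 libraries were sought by the root mean square difference of log2(CPM + 0.5), each gene centred on its own mean, among genes of at least 20 CPM outside the lists. The 5 nearest were RAB7A at 0.060, CGGBP1 at 0.066, CCT7 at 0.075, NRAS at 0.079 and RFC3 at 0.094, where the median of all genes of that level was 0.50. RAB7A, a small GTPase of late endosomes, was at 128, 124 and 134 CPM in siFLI1 and 212, 158 and 135 CPM in siControl. It was nearly equal in siFLI1 and highest in siControl replicate 1 as MYC was. In siFLI1 replicate 3 RAB7A had 50 counts, NRAS 15 and RFC3 14, so closeness this fine is below counting error. Among the other 9 genes, HSPD1 was nearest to MYC at 0.28 and NCL next at 0.30, with NOP56 at 0.72 and BOP1 at 1.89. The BOP1 value depends on the added 0.5, since it had 0 counts in siFLI1 replicate 3. Its mean of 13.4 CPM was also below the 20 CPM of the search.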

How the data were processed

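RNA-seq libraries of A673 cells (3 siFLI1, 3 siControl) came from a 3' protocol derived from MARS-seq, per the labels' protocols. The authors deposited raw counts per gene over exons, 1 RefSeq transcript a gene. Per the submitters' processing notes, hg38 was the build, and HISAT 0.1.5, bcl2fastq and HOMER were used. Use of strand and collapsing of molecular barcodes are not given in the sources used here. Of 27234 rows, 0 lacked a gene name.

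Counts were filtered with filterByExpr (minimum count 10, minimum total 15), scaled by TMM and compared by the two-sided quasi-likelihood test of edgeR 4.0.16 (robust fit, R 4.3.3). Adjustment was by Benjamini-Hochberg over all 9420 tested genes. Standard errors and intervals come from the F statistic. Alternatives used DESeq2 1.42.0, limma-voom (limma 3.58.1), other scalings and filters, a replicate block and left-out libraries. The fit was tested on simulated counts. The genes, lists and tests were chosen with earlier results of these data known. Named genes were the 10, FLI1, HSPE1, per list the 3 smallest p and the highest mean CPM (ribosomal proteins: 1 of each), and the 5 most like MYC. SNU13, IDH3B, SCX, PTPRC, NR0B1, PRKCB, CDKN1A and the markers at 0 were named after their values were seen. Separate cultures are not stated for the libraries, so p-values measure the spread between libraries, which may be technical. No pair of libraries within siFLI1 or siControl matched within counting error (smallest ratio of chi-square to degrees of freedom, 6.78). Floors cover counting error only.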

Additional observations from a re-analysis of the deposited data

How the results depend on the processing

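None of the 10 genes was called under any of the alternatives, at adjusted p values down to 0.0881 (BOP1, no low-count filter). Of 150 values of the 10 genes under the alternatives, 146 kept a log2 fold change below 0. The other 4 were of NPM1, at 0.0016 in limma-voom, 0.14 without siFLI1 replicate 3 (its values with 1 library left out ran from -0.25 to 0.14), 0.078 without siControl replicate 2 and 0.10 without siControl replicate 3, and the cause was not tested. The count of the 10 lower at an unadjusted p below 0.05 was 4 with all libraries, 2 with the replicate block (BOP1 and FBL), and from 0 to 5 with 1 library left out.

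All tested genes called numbered 137, and 217 in DESeq2, 368 with no low-count filter, 72 at a threshold of 0.01, 193 without siFLI1 replicate 3 and siControl replicate 1, and 65 to 126 with 1 library left out. Related list genes called numbered 0 with all libraries, 1 in DESeq2, 2 with no low-count filter, 2 without siFLI1 replicate 3 and siControl replicate 1, and 0 to 1 with 1 library left out. These calls were of PDGFRB and NDRG1. With all libraries the related lists held from 5 to 77 tested genes each. Over all tested genes the shares called were 1.45% with all libraries, 2.30% in DESeq2 and 2.02% without siFLI1 replicate 3 and siControl replicate 1. The replicate block called 101 genes and 0 of the 10. Same-numbered libraries did not deviate together (correlations from -0.0472 to -0.0122). The labels do not say whether they were prepared together, and correlations over all tested genes at these uneven depths cannot decide it. List medians turned above 0 for polyamine genes (0.08) and RNA polymerase I genes (0.10) without siControl replicate 1. That of RNA polymerase I genes was also above 0 (0.05) without siFLI1 replicate 3 and siControl replicate 1. Of the 10 genes, depth limits MAX and BOP1 most. The SE of about 0.25 or more on each log2 fold change leaves small changes of the 10 genes undetectable.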
